A study of Mus musculus with 6 samples.

Results

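The cAMP and CREB signalling genes compared here are 10 genes, chosen by name as parts of 1 pathway: the receptor gene Ptger4, the G protein gene Gnas, the adenylyl cyclase genes Adcy6 and Adcy7, the phosphodiesterase genes Pde4b and Pde4d, the transcription factor genes Creb1 and Crem, and the coactivator genes Crebbp and Ep300. All 10 were measured, among 18193 genes with a single symbol in the array's annotation, and they were read by 34 single-symbol probe sets among 34945. For a gene with several probe sets the one with the highest mean over all arrays gave the value, and the others are described beside it. RNA came from femoral bone marrow of adult hemizygous mice of both sexes from the line Tg(Ren1-GFP)2Kwg, 3 to 6 months old, in which a renin transgene drives green fluorescent protein (GFP). Marrow of 4 to 5 mice was pooled for each of 3 collections, and each pool gave an unsorted sample (presort, n = 3) and a sample sorted for GFP (sorted, n = 3). Every animal in both groups carried the transgene. The sort removed erythrocytes and debris by scatter, which the presort samples did not undergo, and its lower GFP limit was set where 0.1% of transgene-negative cells passed. A replicate is a pool, not an animal. Each sample was hybridised to 1 Affymetrix 3' expression array. Values are log2 of the deposited intensity, which runs from 3.28 to 15.23, and no probe set reads 0 on this scale.

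In this pathway a ligand binds a receptor coupled to the stimulatory G protein, whose alpha subunit activates adenylyl cyclases that make cAMP. Phosphodiesterases break cAMP down, and the cAMP that accumulates releases the catalytic subunits of protein kinase A (PKA), which phosphorylate CREB at promoters holding a cAMP response element (CRE). Phosphorylated CREB recruits the acetyltransferases CBP and p300. In the kidney this pathway is the main stimulus of renin transcription, and in lymphocytes and myeloid cells it is known for restraining activation and cytokine release.

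Of the 10 genes, 6 were higher and 2 lower in sorted cells than in whole marrow of the same pools (limma, Benjamini-Hochberg adjusted p under 0.05 over all genes), and 2 did not pass. Pde4b rose most, by 2.27 on the log2 scale, followed by Ptger4, Crem, Creb1, Crebbp and Adcy7, and Adcy6 and Pde4d fell. Gnas and Ep300 did not pass. Over all genes tested 32.6% were called, 14.5% higher and 18.1% lower (2629 and 3296 genes). With arrays centred on their medians this balance turned, to 5162 genes higher and 2576 lower, and the counts of the 10 genes were again 6 and 2. All 10 genes had a mean above the median of all genes, and among genes above that median 52.9% were called, 24.9% higher and 27.9% lower. The presort and sorted values did not overlap for 8 of the 10 genes, against 44.4% of all genes. For 6 of the 10 they did not overlap and were higher in sorted samples, against 20.9% of all genes. The median difference of the 10 genes was 0.61, and it was 0.52, 0.58 and 0.70 in pools 1, 2 and 3, against a median of -0.0021 over all genes. With the pool as a block 5 genes were called higher and 2 lower, and Adcy7 was lost (limma adjusted p = 0.0589). Without pool 3, 4 genes were called higher and 2 lower. Over the 34 probe sets of these genes 18 were called, against 28.8% of all probe sets, and 16 were called higher, against 13.5%. The groups did not overlap for 42.1% of all probe sets.

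**Figure D1:**
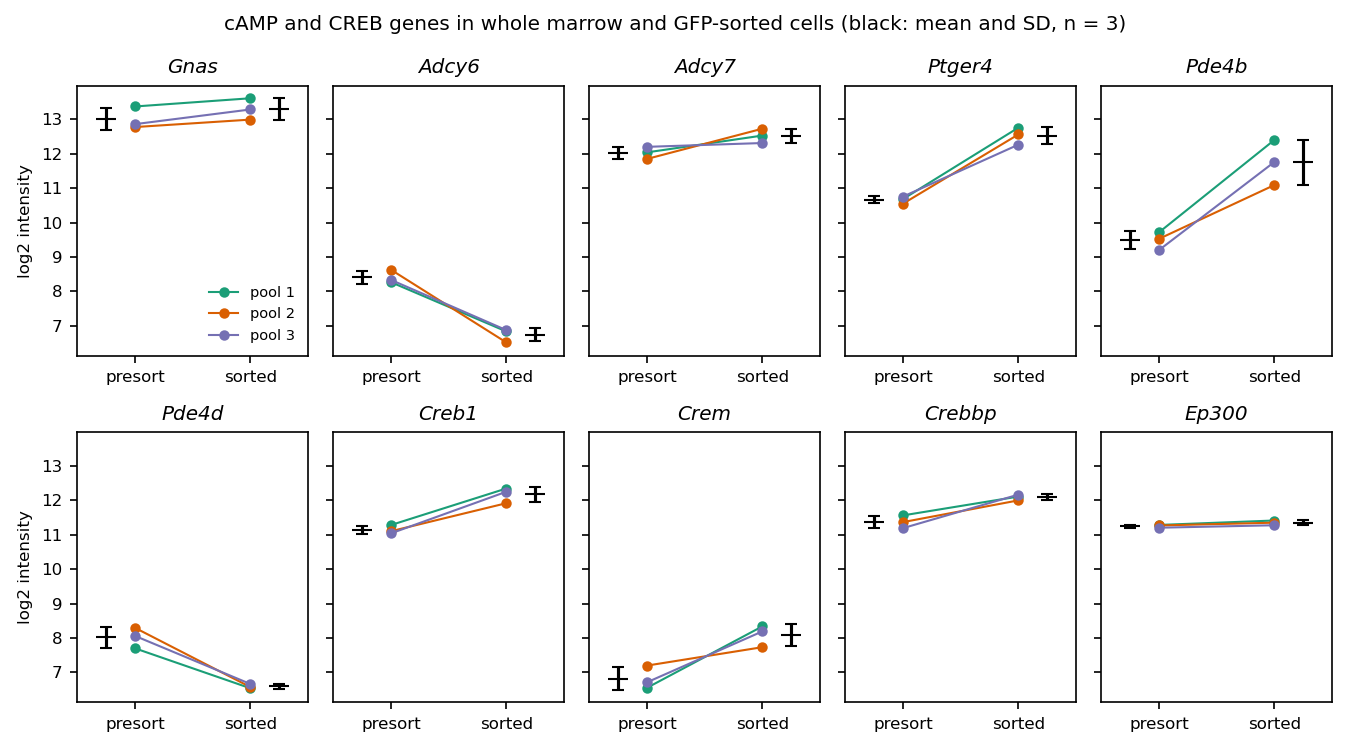
Log2 intensity (vertical axis) of each of the 10 genes in presort and sorted samples, with a line joining the samples of a pool and black bars for the mean and SD of 3 samples. The lines of Ptger4, Pde4b, Creb1, Crem, Crebbp and Adcy7 go up in each pool and those of Adcy6 and Pde4d go down. Those of Gnas and Ep300 also go up in each pool, by less on average (0.29 and 0.09), and their groups overlap.

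The samples differed in more than GFP. Of the B cell markers 9 of 9 measured were higher in sorted samples, with a summed intensity of 9771 to 19613 in presort and 69820 to 74633 in sorted samples. All 10 neutrophil markers were lower (172589 to 181557 against 51562 to 88404), as were 9 of 9 monocyte and macrophage markers (21859 to 28723 against 2144 to 4995), 7 of 8 erythroid markers (58449 to 61839 against 17222 to 28811), 8 of 9 of eosinophils, basophils and mast cells (14339 to 25179 against 938 to 6112), 5 of 7 of megakaryocytes (1434 to 7071 against 689 to 2504) and 5 of 7 of NK cells (478 to 582 against 279 to 483). The summed T cell markers stood at 629 to 957 against 452 to 632. Of smooth muscle and renin-lineage mural markers Tagln was higher, Acta2 lower and 7 of 9 did not pass, with a summed intensity of 920 to 1336 in presort and 497 to 731 in sorted samples. Of endothelial markers 1 of 8 was higher and 1 lower (540 to 611 against 613 to 676). No marker reads 0, since the scale has none, and the part of these cell types in the results below was not tested. The renin gene is not reported here. In bulk RNA, fewer cells of a type and less RNA per cell cannot be told apart. As a sign of RNA quality, the log2 excess of 3' over 5' beta-actin signal averaged 0.96 ± 0.15 (SD, n = 3) in presort samples and 2.05 ± 0.98 (n = 3) in sorted ones, with sorted replicate 1 at 3.17 (two-sided exact permutation p = 0.1, the smallest for 3 against 3 arrays). With this excess as a covariate 5 of the genes were called higher and 2 lower.

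The short core of the CRE stands before the start of 3 of the members. RefSeq promoter windows (build GRCm38.p6, 250 bases before to 50 bases after a start) were available for 8 members, in 16 windows. The windows were searched for the palindromic CRE, TGACGTCA, which reads the same on both strands, and for its short core, TGACG, or CGTCA on the other strand, which also lies inside the palindrome. The palindrome was in 0 of the 16 windows, against 1.79% of 32851 windows over all genes. The short core was in 31.2% of the 16 windows, against 20.8% of all windows. Overlapping windows of Gnas hold the same core, and this share counts it in each of them. By gene it was in windows of Pde4b, Adcy7 and Gnas, 3 of 8 genes, against 23.0% of all 27025 genes with a window. The members have more windows per gene than all genes do, which raises a share counted by gene. The sequences below show the core in capitals, since these are the members whose windows hold it. In Pde4b it lies 34 bases before 1 of 4 listed starts (chr4:102421481-102421554, plus strand), and in Adcy7 28 bases before 1 of 3 (chr8:88282924-88282991, plus strand). Gnas has a core 38 bases before 1 start and 57 bases before another (chr2:174327671-174327748, plus strand), and another core 216 bases before 1 more start (chr2:174329756-174329834, plus strand).
Pde4b: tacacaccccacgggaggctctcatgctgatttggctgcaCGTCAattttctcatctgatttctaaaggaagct
Adcy7: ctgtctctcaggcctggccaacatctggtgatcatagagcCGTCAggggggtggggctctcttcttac
Gnas, first core: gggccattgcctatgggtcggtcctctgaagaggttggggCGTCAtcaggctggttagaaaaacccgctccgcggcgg
Gnas, second core: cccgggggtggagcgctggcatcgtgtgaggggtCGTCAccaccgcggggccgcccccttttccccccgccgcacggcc
In each of the 4 stretches the core reads CGTCA on the strand of the gene, so that TGACG lies on the other strand. Such matches are letters in a window and not measured binding.

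Ptger4, which encodes the prostaglandin E2 receptor EP4 that couples to the stimulatory G protein, rose in sorted cells. Its log2 intensities were 10.69, 10.55 and 10.76 in presort replicates 1, 2 and 3 and 12.76, 12.56 and 12.27 in sorted replicates 1, 2 and 3. The lowest sorted value exceeded the highest presort value by far more than the spread within either group. The difference was 1.87 ± 0.15 (SE, log2; 3.64-fold; 95% interval 1.52 to 2.21; limma adjusted p = 5.39e-05). The other probe set was dimmer, at 5.68, 5.60 and 5.57 against 7.63, 7.31 and 7.30, and rose by 1.80 ± 0.13 (SE; adjusted p = 6.79e-05 over all probe sets). The rises at both probe sets differed by less than their errors.

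The receptors around Ptger4 went both ways. Of 22 measured receptors that couple to the stimulatory G protein, 2 rose and 4 fell (27.3%, against 32.6% of all genes), with a median difference of 0.06. Ptger2, the gene of EP2, the other prostaglandin E2 receptor of this coupling, fell from 8.43 ± 0.35 to 4.88 ± 0.31 (SD, log2, n = 3 each; 11.7-fold lower; limma adjusted p = 2.36e-05). Its values were 8.05, 8.51 and 8.73 in presort and 4.56, 5.18 and 4.90 in sorted replicates, and the groups lay far apart. The sorted values lie as low as the 2 dimmest Gnas probe sets (means of 4.99 and 4.75 over all arrays), where the scale leaves little room to fall, so this fold and any ratio built on it are not exact sizes. The within-array log2 ratio of Ptger4 over Ptger2 was 2.64, 2.04 and 2.03 in presort and 8.20, 7.38 and 7.37 in sorted replicates. Only the change of such a ratio can be read, since probe sets differ in brightness for the same RNA, and this one changed by 5.41. This and the ratios below were chosen after the values were seen and mostly pair genes with unlike calls, so they restate the single genes and are given with no test. Ptgir, the prostacyclin receptor gene, fell by 2.56. Its sorted values of 4.69, 4.91 and 4.74 lie as low as those of Ptger2, so this is not an exact size either. Gpr65, a proton-sensing receptor gene, fell by 1.74. Outside the naming rule, Calcrl, part of the receptors for adrenomedullin and calcitonin gene-related peptide, fell by 1.07 and Gpr12 rose by 1.18. The remaining 16 receptors, among them Hrh2, Ptgdr and Vipr1, did not pass.

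Gnas, which encodes the stimulatory alpha subunit, was the brightest of the 10 genes and did not pass at its brightest probe set. That probe set stood at 13.38, 12.78 and 12.86 in presort and at 13.62, 12.995 and 13.29 in sorted replicates, with overlapping groups. The difference was 0.29 ± 0.21 (SE; 95% interval -0.19 to 0.78; limma adjusted p = 0.363), so a rise of up to 0.78 lies within the interval. That fit does not pair samples, so its error includes the spread between pools. Within pools 1, 2 and 3 the sorted sample was higher by 0.24, 0.22 and 0.43. With the pool as a block the SE was 0.11, and Gnas still did not pass (limma adjusted p = 0.0936). With the beta-actin covariate the difference was -0.039. The second-brightest probe set stood at 6.85, 6.02 and 6.36 in presort and at 8.81, 8.17 and 8.11 in sorted replicates. It rose by 1.95 ± 0.26 (SE; 3.87-fold; adjusted p = 0.00111 over all probe sets), with no overlap. The next in brightness differed by 1.05 ± 0.38 (SE) and did not pass (adjusted p = 0.0787), with sorted replicate 2 at 7.99 and the others at 6.77 and 6.59. The 2 dimmest stood at -0.11 and 0.10. The ratio of the second-brightest over the brightest probe set changed by 1.66 on the log2 scale, from -6.53, -6.76 and -6.50 to -4.81, -4.83 and -5.18. Gnas is a locus with several starts and overlapping transcripts, and which transcript each probe set reads was not determined. With probe sets ending in _s_at left out, Gnas was read by its second-brightest probe set and called higher, and averaged over its probe sets it was called at 0.66 (limma adjusted p = 0.00636).

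Of the other alpha subunits, Gnai2, an inhibitory one that lowers cyclase activity, fell from 12.89 ± 0.21 to 12.36 ± 0.06 (SD, log2, n = 3 each; adjusted p = 0.0156), and the remaining 6 of 7, among them the bright Gnai3 at -0.025, did not pass. Called were thus 14.3% of this list, against 32.6% of all genes. The call of Gnai2 was lost without any of the 3 pools (limma adjusted p from 0.0521 to 0.0751), with the beta-actin covariate (0.0829) and when arrays were centred on their medians, where it stood at -0.30 (0.125).

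**Figure D2:**
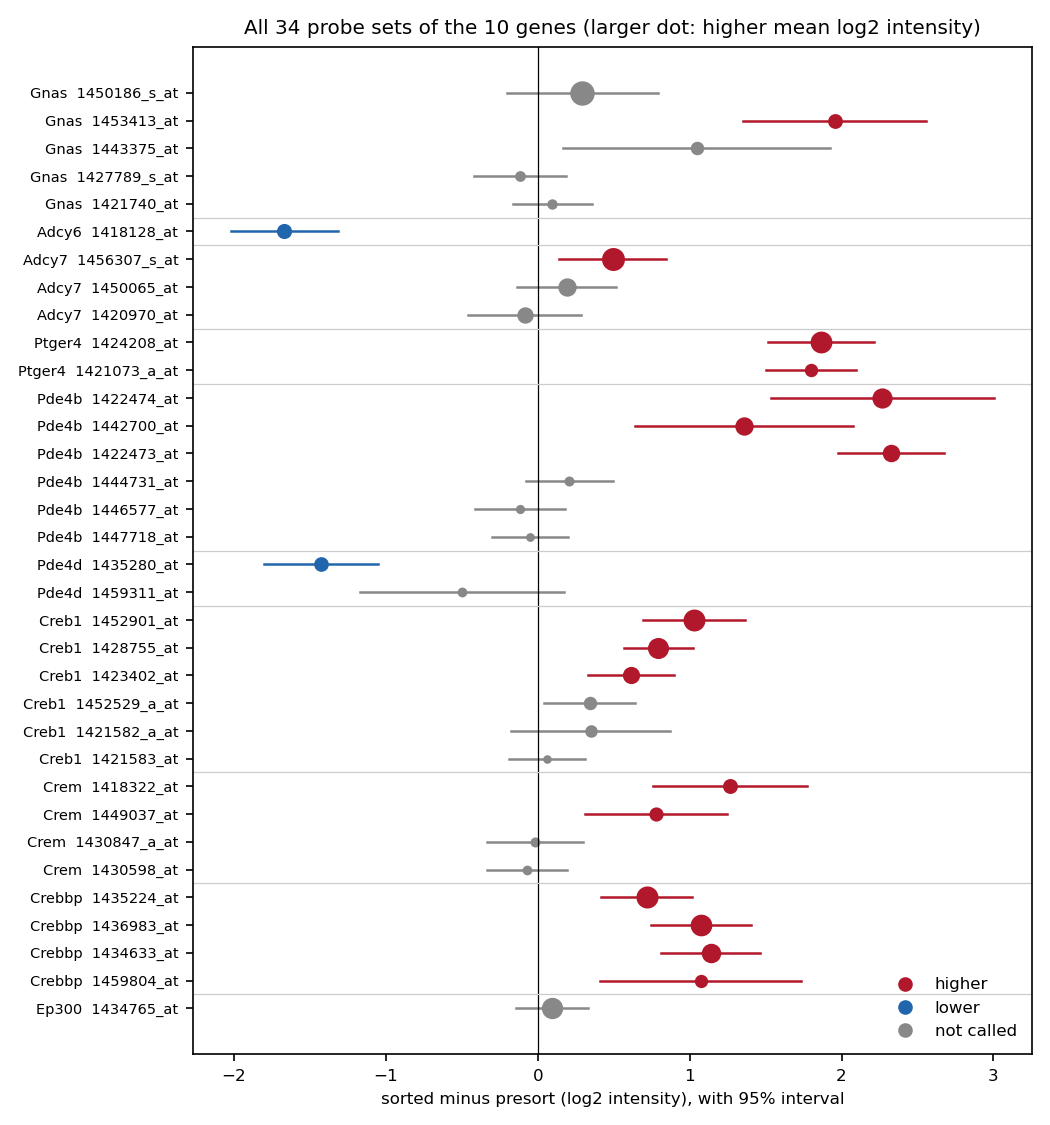
Difference between sorted and presort samples (log2 intensity, horizontal axis) with its 95% interval for each of the 34 probe sets of the 10 genes, coloured by call in the fit over all probe sets, with larger dots for brighter probe sets. Of the 34 probe sets 16 were called higher, 2 lower and 16 not called, and the dimmest probe sets of Gnas, Pde4b, Creb1 and Crem lie close to 0.

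The adenylyl cyclases Adcy6 and Adcy7, which make cAMP from ATP, went in opposite directions. Adcy6, a calcium-inhibited cyclase known in cells of the renin lineage, stood at 8.27, 8.63 and 8.34 in presort and 6.84, 6.52 and 6.88 in sorted replicates, with no overlap. It fell by 1.67 ± 0.15 (SE; 3.18-fold lower; 95% interval -2.01 to -1.32; limma adjusted p = 9.93e-05), and it has 1 probe set. Adcy7, the main cyclase of B and T lymphocytes and macrophages, stood at 12.04, 11.85 and 12.20 in presort and 12.53, 12.73 and 12.31 in sorted replicates. The lowest sorted value lay just above the highest presort value. The rise was 0.49 ± 0.15 (SE; 1.41-fold; 95% interval 0.15 to 0.84; adjusted p = 0.0365), and pool 3 contributed 0.11 against 0.49 and 0.88 in pools 1 and 2. The other Adcy7 probe sets did not pass, at 0.19 for the second-brightest and -0.087 for the dimmest. The call of Adcy7 was lost in 11 of 18 alternatives, among them the pool as a block (limma adjusted p = 0.0589), each of presort replicates 1 and 2 and sorted replicates 1 and 2 left out (0.0666 to 0.138), pool 1 left out (0.118), pool 2 left out (0.30; 0.285), the mean of its probe sets (0.20; 0.272), no _s_at probe sets (0.19; 0.382), array weights (0.0662) and the beta-actin covariate (0.136). The within-array ratio of Adcy7 over Adcy6 rose from 3.77, 3.22 and 3.87 to 5.69, 6.21 and 5.44, a change of 2.16. Of 10 cyclases measured Adcy6 and Adcy7 were the only 2 called in the fit as described (20%, against 32.6% of all genes). Adcy9 at -0.43 and Adcy8 at -0.32 did not pass (limma adjusted p of 0.0971 and 0.120).

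Pde4b and Pde4d, both of the PDE4 family of cAMP-specific phosphodiesterases, also went in opposite directions. Pde4b, the PDE4 gene known for its induction in activated leukocytes, stood at 9.72, 9.53 and 9.20 in presort and 12.40, 11.09 and 11.76 in sorted replicates. It rose in every pool, by 2.68, 1.56 and 2.56 in pools 1, 2 and 3, and the groups did not overlap. The rise was 2.27 ± 0.31 (SE; 4.82-fold; 95% interval 1.55 to 2.98; limma adjusted p = 0.000815). The next 2 probe sets in brightness rose as well, by 1.36 ± 0.31 and 2.33 ± 0.15 (SE), and the latter was even across sorted replicates, at 10.15, 10.15 and 10.18 after 8.13, 7.77 and 7.59 in presort. The 3 dimmest probe sets stood at 0.21, -0.12 and -0.051 and did not pass. Averaged over all 6 the rise was 0.998 and was called.

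Pde4d stood at 7.70, 8.30 and 8.06 in presort and 6.54, 6.57 and 6.66 in sorted replicates. The sorted values lay close together and below each presort value. It fell by 1.43 ± 0.16 (SE; 2.69-fold lower; 95% interval -1.80 to -1.06; limma adjusted p = 0.000299), and its dim second probe set did not pass at -0.50 ± 0.29 (SE). The ratio of Pde4b over Pde4d was 2.02, 1.23 and 1.14 in presort and 5.86, 4.52 and 5.10 in sorted replicates. It changed by 3.70 on the log2 scale.

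Of the 15 measured phosphodiesterases that hydrolyse cAMP, 3 rose and 3 fell (40%, against 32.6% of all genes), with a median difference of -0.08. Pde7a, a high-affinity cAMP phosphodiesterase of lymphocytes, rose by 1.76 ± 0.21 (SE; 3.38-fold), and Pde8a, of another high-affinity family, fell by 2.01 ± 0.12 (4.02-fold lower; -1.26 when its probe sets were averaged). Outside the naming rule, Pde3b rose by 0.85 and Pde7b fell by 1.22. Pde2a, the brightest of the list and stimulated by cGMP, did not pass at 0.09 ± 0.27 (SE), with presort replicate 1 at 13.26 above all sorted values. PDE families 4, 7 and 8 are specific for cAMP, and in 4 and 7 1 measured gene rose while another fell.

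**Figure D3:**
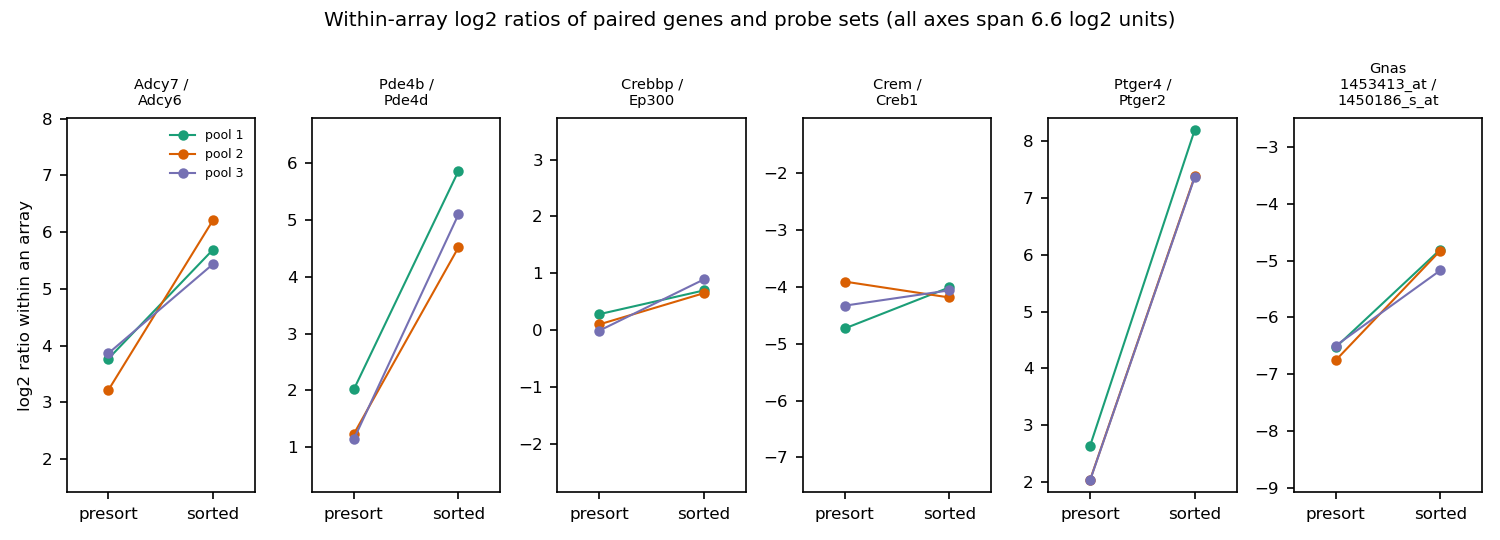
Log2 ratio of paired genes or probe sets within an array (vertical axis, each panel spanning 6.6 log2 units) in presort and sorted samples, with a line for each pool. The ratios of Adcy7 over Adcy6, Pde4b over Pde4d and Ptger4 over Ptger2 change by 2.16, 3.70 and 5.41 with no overlap of the groups, and that of Crem over Creb1 changes by 0.24 with overlap.

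Of 9 measured genes of PKA subunits and inhibitors 1 rose and 2 fell, 33.3% against 32.6% of all genes, with a median difference of -0.084. Prkar2b fell from 11.28 ± 0.11 to 9.53 ± 0.08 (SD, log2, n = 3 each; 3.38-fold lower; limma adjusted p = 2.63e-05) and Prkar2a fell by 1.63 ± 0.12 (SE; -0.87 when its probe sets were averaged). Pkig, the gamma PKA inhibitor, rose by 1.62 ± 0.17 (SE; 3.08-fold; adjusted p = 0.000198). The catalytic subunit genes Prkaca and Prkacb stood at 0.08 and 0.29 and the type I regulatory gene Prkar1a at -0.19, and none of these passed.

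Among other cAMP effectors Rapgef3, the Epac1 exchange factor for Rap GTPases, rose by 1.36 ± 0.33 (SE) and Popdc2, a cAMP-binding membrane protein, fell by 0.94 ± 0.22, and 6 of 8 did not pass. Called were 25% of this list, against 32.6% of all genes. The sorted values of Rapgef3 spread widely, at 8.23, 8.70 and 9.73, over presort values of 7.60, 7.46 and 7.52. It missed the threshold when presort replicate 2 or 3 or pool 2 was left out (limma adjusted p from 0.0510 to 0.0845), and Popdc2 missed it without presort replicate 3, pool 2 or pool 3 and with the beta-actin covariate (0.0522 to 0.127).

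Of 13 A-kinase anchoring proteins, which hold PKA at its targets, 4 rose and 2 fell (46.2%, against 32.6% of all genes; median 0.17). Akap12, a scaffold for PKA and protein kinase C, rose from 11.11, 10.26 and 9.98 to 12.995, 13.10 and 13.35, by 2.70 ± 0.27 (SE; 6.50-fold; limma adjusted p = 0.000183). Akap2 rose by 1.51 and Akap9, of the Golgi and centrosome, 2.63-fold. Akap7 fell by 1.67 (-0.89 when its probe sets were averaged). Outside the naming rule, Akap8 rose by 1.05 and Akap1, of the mitochondrial surface, fell by 1.29. Akap13, the brightest, did not pass at 0.20 ± 0.14 (SE), and averaged over its probe sets it was called at 0.53 (limma adjusted p = 0.0112).

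**Figure D4:**
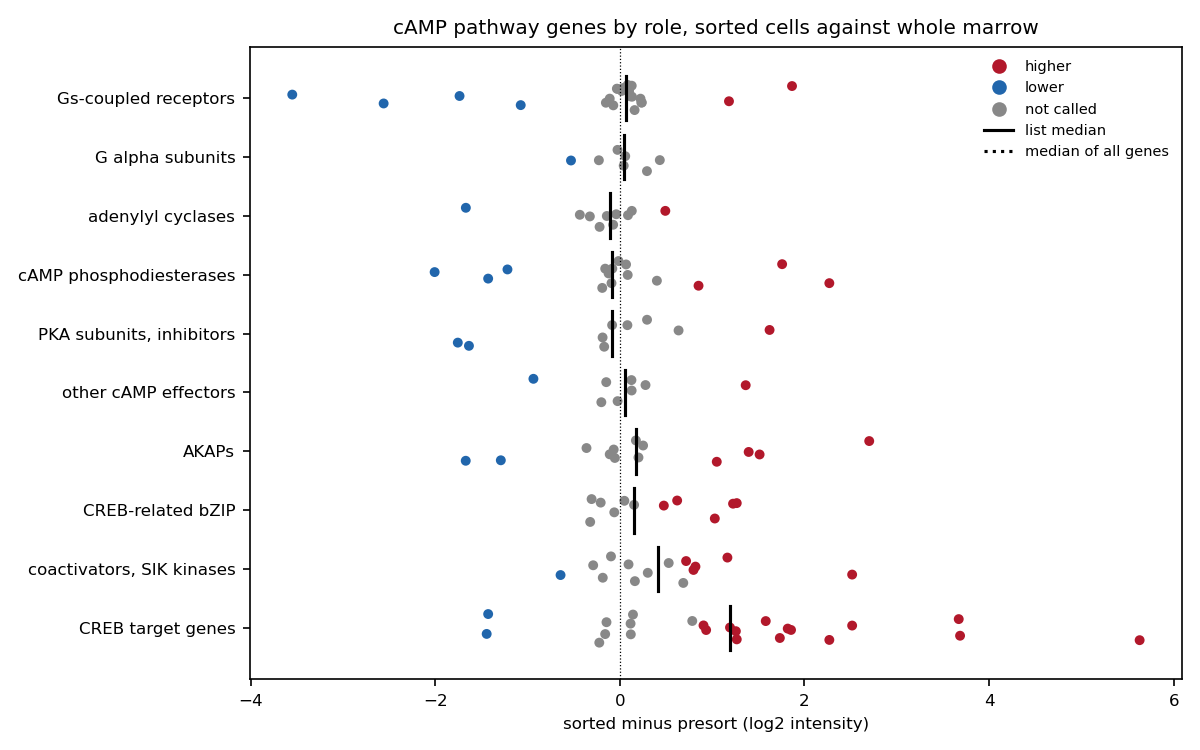
Difference between sorted and presort samples (log2 intensity, horizontal axis) for each measured gene of 10 lists by role, coloured by call, with the median of each list as a bar and the median of all genes as a dotted line. Receptors, phosphodiesterases and PKA genes spread to both sides. The CREB-related factors called, which include the members Creb1 and Crem, are all to the right. Of the CREB target genes 14 of 23 are called higher, against 14.5% of all genes.

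Creb1 and Crem, the bZIP factors that bind CRE sites, both rose. Creb1, the founding member of the family, stood at 11.28, 11.10 and 11.04 in presort and 12.34, 11.92 and 12.25 in sorted replicates, with no overlap. The rise was 1.03 ± 0.14 (SE; 2.04-fold; 95% interval 0.70 to 1.36; limma adjusted p = 0.00094). The next 2 probe sets rose by 0.79 ± 0.10 (SE) and 0.61 ± 0.12, and the 3 dimmer ones, at 0.34, 0.35 and 0.062, did not pass. The 3 brightest probe sets thus had the largest differences, and averaged over all 6 the rise was 0.53 and was called.

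Crem, whose gene also makes the inducible repressor ICER from an internal promoter, was the dimmest of the rising members. It stood at 6.55, 7.20 and 6.71 in presort and 8.34, 7.73 and 8.19 in sorted replicates. Pool 2 had both the highest presort and the lowest sorted value, and differences were 1.79, 0.53 and 1.48 in pools 1, 2 and 3. The rise was 1.27 ± 0.21 (SE; 2.41-fold; 95% interval 0.77 to 1.76; limma adjusted p = 0.00248), and without pool 3 it was 1.16 and missed the threshold (0.0505). The second-brightest probe set rose by 0.78 ± 0.20 (SE; adjusted p = 0.0226 over all probe sets), and the 2 dimmest stood at -0.016 and -0.071. With the mean of all 4 the rise was 0.49 and was called. Which Crem transcript each probe set reads was not determined. The ratio of Crem over Creb1 overlapped between the groups, at -4.73, -3.90 and -4.33 in presort and -4.01, -4.18 and -4.06 in sorted replicates.

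Of 11 measured CREB-related bZIP genes 5 rose and 0 fell (median 0.15; limma adjusted p under 0.05), and 2 of the remaining 6, Crebzf and Creb3l1, were lower at an unadjusted p under 0.05 (limma p of 0.0366 and 0.0407). The 5 include the members Creb1 and Crem. Called were 45.5% of this list, against 32.6% of all genes. As shares of all genes, 14.5% were called higher and 18.1% lower. Creb3l2, a membrane-bound factor of the secretory pathway, rose by 1.23 ± 0.11 (SE; 2.34-fold; limma adjusted p = 0.00012) and Atf4, of the amino acid and stress response, by 0.62 ± 0.12. The call of Atf4 was lost without pool 2 (0.0501) or pool 3 (0.0829). Outside the naming rule, Creb3 rose by 0.48. The remaining 6, among them Atf2 at 0.15, Creb5 at -0.21, Crebzf at -0.31 and Creb3l1 at -0.32, did not pass. Without pool 2 the count of rises in this list was 3 and without pool 3 it was 2.

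The acetyltransferase genes Crebbp and Ep300, whose proteins CBP and p300 are close paralogs, differed in their calls. Crebbp stood at 11.56, 11.37 and 11.19 in presort and 12.11, 12.00 and 12.17 in sorted replicates, with no overlap. It rose by 0.72 ± 0.13 (SE; 1.64-fold; 95% interval 0.42 to 1.01; limma adjusted p = 0.00324), and without pool 3 by 0.59, where it missed the threshold (0.0575). All 4 of its probe sets rose, the other 3 by 1.07, 1.14 and 1.07. Ep300 stood at 11.29, 11.27 and 11.21 in presort and 11.41, 11.35 and 11.28 in sorted replicates. It did not pass at 0.09 ± 0.10 (SE; adjusted p = 0.573), and its 95% interval of -0.14 to 0.33 lies below that of Crebbp. Within pools 1, 2 and 3 the sorted sample was higher by 0.13, 0.082 and 0.071. The ratio of Crebbp over Ep300 was 0.28, 0.10 and -0.013 in presort and 0.70, 0.65 and 0.89 in sorted replicates, a change of 0.62 with no overlap. Centring arrays on their medians, which moves the median of all genes to 0.23, put Ep300 at 0.32 (limma adjusted p = 0.0569).

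Of 14 coactivators and related kinases 5 rose, the member Crebbp among them, and 1 fell (42.9%, against 32.6% of all genes; median 0.42). Sik1, a salt-inducible kinase that keeps the CREB coactivators of the CRTC family in the cytoplasm, rose by 2.52 ± 0.34 (SE; 5.72-fold; limma adjusted p = 0.000801), from 7.37, 6.43 and 5.81 to 9.09, 9.10 and 8.97. Its relative Sik3 rose by 1.17 (0.73 when its probe sets were averaged), and Sik2, outside the naming rule, fell by 0.64. The nuclear receptor coactivator genes Ncoa3 and Ncoa2 rose by 0.82 and 0.80, and the call of Ncoa2 was lost when pool 2 (limma adjusted p = 0.0818) or pool 3 (0.131) was left out. Crtc1, Crtc2 and Crtc3 stood at 0.30, 0.69 and -0.10 and did not pass, nor did the brightest gene of the list, Cited2, at -0.29 ± 0.16 (SE). Without pool 3 the count of rises in this list was 3, and with arrays centred on their medians it was 9.

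Of 23 measured textbook target genes of CREB, 14 rose and 2 fell, with a median difference of 1.19. Called were 69.6% of the list, against 32.6% of all genes (14.5% higher and 18.1% lower) and 52.9% of genes brighter than the median gene. Some of the targets, among them Gem and Sst, are dimmer than the median gene. The list includes Pde4b, Pde4d and Crem and genes of the immediate early class that other signals induce as well. Only the sorted samples went through the sort, and its part in these differences was not tested. The median was 0.89, 0.69 and 1.51 in pools 1, 2 and 3. Fosb rose by 5.63 ± 1.08 (SE; limma adjusted p = 0.00461), Gem, a small GTPase, by 3.69 ± 0.24 (12.9-fold; 2.82e-05) and Egr1 by 3.67 ± 0.94 (0.0187). Gem stood at 5.08, 5.04 and 4.93 in presort and 8.95, 8.09 and 9.07 in sorted replicates. Its presort values lie near the low end of the scale, so its fold is not an exact size. Fosb stood at 8.79, 5.35 and 4.51 in presort and 12.90, 10.49 and 12.16 in sorted replicates. Its values in presort replicates 2 and 3 lie near the low end as well, so its difference is not an exact size either. Egr1 spread widely in presort, at 11.78, 8.59 and 7.42, and was even in sorted replicates, at 12.97, 12.81 and 13.03. Fos, the brightest, ran from 13.95, 12.86 and 11.61 in presort to 14.52, 14.34 and 14.31. In presort replicate 1 Fosb, Egr1, Fos and Sik1 were higher than in presort replicates 2 and 3. The call of Fos at 1.58 ± 0.50 (SE) was lost in 9 of 18 alternatives and was 0.98 without presort replicate 3 and 1.02 without pool 3, that of Egr1 in 6, and that of Fosb without pool 3 (0.0588) and with the beta-actin covariate (0.0592). Without pool 3 the list had 7 rises, and with the beta-actin covariate 8. Genes that fell were Pde4d and, outside the naming rule, Nfil3 at -1.44. Nr4a2, Nr4a3 and Per1 stood at -0.22, 0.12 and 0.78 and did not pass.

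Promoter windows were available for 20 of 24 listed targets, and 18 of them hold the short CRE core, against 23.0% of all genes. By window the shares were 63.3% of 30 windows against 20.8% of all windows. These genes were listed as known CREB targets, so a high share comes with the choice of list and says nothing about these samples. Among the targets called higher it was in 9 of 10 genes with a window, and among the other measured targets in 8 of 9. The palindromic CRE was in the windows of Btg2 and Dusp1 among the rising targets, and of Sst and Areg. Btg2 and Dusp1 are shown with the palindrome in capitals and Fos with the nearer of its 2 cores in capitals, as examples among the rising targets to set beside the members. Btg2 (chr1:134079274-134079361, minus strand) has it 166 bases and Dusp1 (chr17:26508568-26508655, minus strand) 143 bases before the start, and Fos (chr12:85473784-85473868, plus strand) has cores 129 and 66 bases before the start. Dusp1 has 1 more core, 191 bases before the start.
Btg2: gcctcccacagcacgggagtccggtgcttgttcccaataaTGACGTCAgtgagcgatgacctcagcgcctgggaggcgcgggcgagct
Dusp1: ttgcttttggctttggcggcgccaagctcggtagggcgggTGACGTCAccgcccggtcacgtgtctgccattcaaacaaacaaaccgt
Fos: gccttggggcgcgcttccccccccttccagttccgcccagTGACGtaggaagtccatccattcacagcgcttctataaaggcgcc
Btg2, an antiproliferative gene, rose by 1.19 ± 0.17 (SE; limma adjusted p = 0.00101) and Dusp1, a MAP kinase phosphatase, by 0.93 ± 0.24 (0.0195).

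Over all roles, 118 pathway genes other than the members were measured, of which 27 rose and 14 fell (34.7%), close to the 32.6% of all genes, and their median difference was 0.075. Without pool 3, 17 rose, and with arrays centred on their medians 43 rose and 13 fell. The 118 include the CREB target genes that are not members. Of the whole target list, its members included, 14 of 23 rose and 2 fell.

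The genes with the most similar profile to each member over the 6 arrays were found by the root mean square distance of log2 values centred on each gene's mean. Genes with clone or predicted-gene names were left out, as were genes whose largest deviation from their mean was well below the member's. The genes compared thus differed by member, from 2585 for Pde4b to 16297 for Ep300. For Creb1 these were Dnmt3a and Mettl23 (distances of 0.046 and 0.047, against 0.535 for Creb1 from its own mean). For Adcy6 they were Wdr34 and Recql4 (0.050 and 0.085), for Pde4d Spic and Id1 (0.081 and 0.085) and for Crebbp Trim35 and Desi2 (0.051 and 0.054). For Ptger4 they were Slc38a9 and Cbfa2t3 (0.090 and 0.097), for Pde4b Swap70 and Tifa (0.115 and 0.119) and for Crem Atp10d and Chst7 (0.125 and 0.136). Gnas was nearest to Ikbkb and Arhgef1 (0.062 and 0.063), Adcy7 to Bnip5 and Rev3l (0.067 and 0.074) and Ep300 to the dim genes Gucy1a2 and Myrfl (0.019 and 0.021). None of these 20 genes is a member or stands in a pathway list. The distances were smallest for Ep300, which varied least over the arrays, and largest for Crem.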

How the data were processed

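Bone marrow RNA of 6 samples (3 presort and 3 sorted, by their titles) was labelled from the 3' end and read on Affymetrix arrays, per the labels' protocols. The deposited values are linear intensities (9.71 to 38492.08) made by the authors, and RMA is the tool named in the submitters' processing notes, with no version given in the sources used here. Log2 was taken with no pseudocount.

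Of 45101 probe sets, 34945 carried 1 symbol in the platform annotation and were used, 932 carried several, 9160 none, and 64 were controls. The brightest probe set read each of 18193 genes. The comparison used lmFit and eBayes of limma 3.58.1 under R 4.3.3 (two-sided, 4 residual degrees of freedom before moderation), with Benjamini-Hochberg adjustment over all genes, or over all 34945 probe sets where so stated, and a threshold of 0.05. Tested on simulated data for sorted against presort arrays (18193 genes, 200 altered), it recovered 51% of altered genes at a log2 size of 1 and 95% at a size of 2, with 1 false call. The simulated noise was independent with no pool effect, and far fewer genes were altered than the 32.6% called in the data. These rates therefore need not hold for the data. Within-array ratios, chosen after the values were seen, were not tested. The p-value of the beta-actin excess comes from exact permutation over the 6 arrays, two-sided. The number of arrays limits the precision.

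Same-numbered samples come from 1 pool, per the series' design text, and this pairs them. Over genes, the correlation of their deviations was 0.39 for pool 1, 0.20 for pool 2 and -0.026 for pool 3. A fit with the pool as a block was an alternative, beside dropping single arrays or pools, a filter on the dimmest 33.3% of genes, renewed quantile normalization, median centring, averaged probe sets, leaving out _x_at and _s_at probe sets, a trended robust prior, array weights and the beta-actin covariate. The members, lists and tests were chosen with earlier results of these data known. Named are all members, up to 4 called genes with the largest differences and the brightest gene of each list, and the 2 nearest genes of each member; other genes were named after their values were seen. Of the list genes 22 are not analysed here. Figures used Python 3.11.15 and matplotlib 3.10.9.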

Additional observations from a re-analysis of the deposited data

How the results depend on the processing

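Over 18 alternatives for each of the 10 members, 164 of 180 values kept their direction and their side of the threshold. Adcy6, Ptger4, Pde4b, Pde4d and Creb1 kept their calls in each of the 18. Of the remaining values 13 lost a call (Adcy7 in 11, Crem and Crebbp in 1 each, without pool 3), Gnas gained one in 2, and Gnas stood at -0.039 with the beta-actin covariate. With the pool as a replicate block 5 members were higher and 2 lower, and Adcy7, at 0.49, missed the threshold (limma adjusted p = 0.0589); of pathway genes other than members 30 rose and 14 fell, of CREB targets 14 and 2, and of member probe sets 15 and 3. Leaving out arrays or pools gave 4 to 6 rises among members, 10 to 16 among their probe sets, 17 to 28 among the other pathway genes and 7 to 14 among CREB targets. The share of calls that are higher was 65.9% for the other pathway genes and 76.8% with arrays centred on their medians (43 and 13 genes), 44.4% and 66.7% for all genes, and 75.0% under both for the members. With the beta-actin covariate 8 targets rose. Pde2a, not called under any alternative, ran from -0.15 to 0.42 with arrays or pools left out, and stood at -0.23 without _s_at probe sets and -0.13 with the beta-actin covariate. The causes of these shifts were not tested. Dim probe sets have little room to fall on this scale, and no detection calls were used here.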
